A study of Mus musculus with 18 samples.

Results

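The aminoacyl-tRNA synthetases were followed in RAW264.7 cells, a mouse macrophage-like cell line. The group was given as a list of 36 gene symbols, 20 cytosolic enzymes and 16 mitochondrial enzymes whose symbols end in 2, and all 36 were listed in each of the 18 libraries, out of 14002 genes listed in any library. The cells were left untreated (0 min) or given the uridine analogue 4-thiouridine (4sU), which is built into RNA made during the pulse and read as a T-to-C change after sodium periodate has converted it to cytidine. Each of 9 lysates gave 2 libraries: cytoplasmic input RNA broken by alkali, and ribosome footprints, the RNase I resistant fragments taken from the monosome fractions of a sucrose gradient. Experiment 1 held 6 lysates (0, 20, 40, 60, 90 and 120 min of 4sU) and experiment 2 held 3 lysates (20, 30 and 40 min). All lysates were made with cycloheximide in the wash and the lysis buffer, so no group without that drug exists. The labels do not say whether the lysates came from separate cultures, and p-values then measure only the spread between these lysates.

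Aminoacyl-tRNA synthetases join each amino acid to its transfer RNA, the step that makes the genetic code readable by the ribosome. Most amino acids have one enzyme for the cytosol and another, encoded by a separate nuclear gene, for the mitochondrial ribosome, while Gars and Kars are known to serve both compartments. Several cytosolic enzymes sit in a multisynthetase complex held together by scaffold proteins, and many are induced by the transcription factor ATF4 when uncharged tRNA activates the kinase GCN2. Glutaminyl-tRNA in mitochondria is made by another route, in which a mischarged tRNA is amidated by the enzymes encoded by Gatb, Gatc and Qrsl1.

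RefSeq promoters (GRCm38.p6) were matched for 13 of 20 cytosolic and 14 of 16 mitochondrial members, and the ATF4-type element TGATGNAA was searched on both strands in the 250 bases before each start. Genes were counted, and a gene counted if any of its promoters held the element. It was found for 3 of the 13 cytosolic members (23.1%), for 0 of the 14 mitochondrial ones and for 1056 of 27025 RefSeq genes (3.91%). The windows around the 3 matches are shown because no other matched member carries the element, with the element in capitals as it reads on the gene's own strand, where it appears as its reverse complement TTNCATCA.
Gars: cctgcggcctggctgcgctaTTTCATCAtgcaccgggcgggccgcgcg
Aars: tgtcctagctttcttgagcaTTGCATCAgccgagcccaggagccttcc
Tars: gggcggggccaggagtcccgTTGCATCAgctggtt
The window of Gars, the glycyl enzyme, is chr6:55037951-55037998, and its element begins 30 bases before the start. That of Aars, the alanyl enzyme, is chr8:111033710-111033757, and its element begins 112 bases before the start. That of Tars, the threonyl enzyme, is chr15:11399659-11399693 on the minus strand, and its element begins 15 bases before the start. A match is a description of the letters and not a bound site, and binding was not measured.

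Total reads per library were 6230562 to 7933796 in the input of experiment 1 and 26359243 to 48139330 in that of experiment 2, and footprint libraries held 11771175 to 87536081. Levels are given as CPM, a library's reads scaled to a common total, after TMM scaling between libraries where so named. Over genes above 5 TMM-scaled CPM in every library, the first principal component of the input libraries held 63% of the variance and parted the experiments, with loadings of 0.04 to 0.44 in experiment 1 and -0.51 to -0.28 in experiment 2, so each result below was also computed in experiment 1 alone, and density and relative labelling in experiment 2 alone. All 10 macrophage markers were listed, among them Lyz2 at 3643 to 5296 CPM of input, although Itgam stayed at 1.76 to 2.90. Of 10 markers of other cell types, 7 were not listed and the other 3 (Cd79b, Pecam1, S100a8) reached at most 3.29 CPM.

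Synthetase mRNAs of the cytosol were far more abundant than those of mitochondria. Cytosolic members took 0.585% to 0.633% of input reads, and mitochondrial members took 0.0671% to 0.0724%. On the scale of TMM-scaled CPM per kilobase of transcript, the median input level was 93.8 over the 20 cytosolic members and 8.28 over the 16 mitochondrial members. The most abundant cytosolic mRNA per length was Sars, the seryl enzyme, at 165 to 231 with a median of 203 over 9 input libraries. The least abundant was Cars, the cysteinyl enzyme, at 28.5 to 34.2 with a median of 31.5. Every neighbour in the cytosolic input order overlapped the next in range except Qars and Aars. Tars2, the mitochondrial threonyl enzyme, led its compartment at 43.8 to 64.7 with a median of 49.5, above the medians of Aars and Cars. Mars2, the mitochondrial methionyl enzyme, was lowest per length at 1.956 to 3.17 with a median of 2.47. That rank rests on an annotated transcript of 11294 bases. Without length scaling the Mars2 median was 27.9 TMM-scaled CPM, and Pars2 had the lowest median at 8.66. The mitochondrial input order had gaps in range below Iars2, Sars2 and Vars2, and its other neighbours overlapped.

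Footprints, scaled per kilobase of coding sequence, changed that order. Nars, the asparaginyl enzyme, at 130.0 to 174.5 per kilobase in input and below Sars there, was first in footprints at 344 to 457, with no overlap with Sars at 253 to 320.2. Yars2, the mitochondrial tyrosyl enzyme, led its compartment in footprints at 39.7 to 49.7 and overlapped Tars2 at 33.9 to 48.8. Lars2, the mitochondrial leucyl enzyme, was at position 15 of 16 in input with a median of 2.69 and at position 6 in footprints with a median of 16.1. In bulk libraries a change in RNA per cell and a change in which cells are present cannot be told apart.

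**Figure D1:**
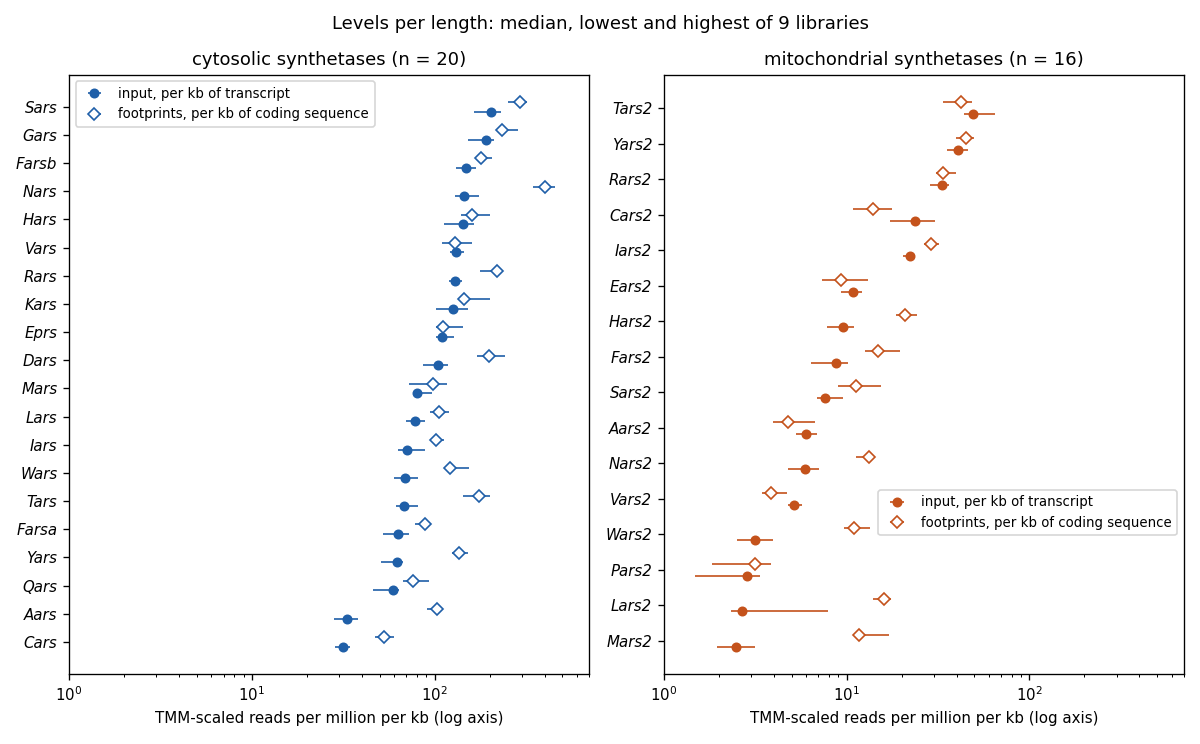
Levels of the 20 cytosolic (left) and 16 mitochondrial (right) synthetases on a log axis of TMM-scaled CPM per kilobase; filled circles are input per kilobase of transcript, open diamonds are footprints per kilobase of coding sequence, and bars run from the lowest to the highest of 9 libraries. Cytosolic input medians run from 31.5 (Cars) to 203 (Sars) and mitochondrial ones from 2.47 (Mars2) to 49.5 (Tars2), and Nars moves from 145 in input to 401 in footprints.

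Ribosome footprints relative to input lay above 0 for most cytosolic and below 0 for most mitochondrial members. The value compared is the log2 ratio of footprint to input reads after TMM scaling, here called ribosome density, tested by edgeR's quasi-likelihood test with labelling time as a term, and a call means a Benjamini-Hochberg adjusted p under 0.05 over 10110 genes. Of the 20 cytosolic members, 15 were higher in footprints, 0 were lower and 5 were not called, with a median log2 density of 0.29. Of the 16 mitochondrial members, 2 were higher, 11 were lower and 3 were not called, with a median of -0.39. The median of all genes tested was -0.04, and 35.8% of them were called higher against 40.4% called lower, so the cytosolic share called higher was above the background and the mitochondrial share called lower was above it too. In each of the 9 lysates the median density of cytosolic members was above that of mitochondrial members, by 0.47 to 0.84, which is given as a description because members are not replicates. Cytosolic members took 8.16 to 9.24 reads per mitochondrial read in input and 11 to 13.5 in footprints, and these ranges did not overlap.

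Nars had the highest cytosolic density before scaling for length. Its levels were 356.8 to 479 TMM-scaled CPM in input (median 399) and 578 to 767 in footprints (median 672), and no footprint library overlapped an input library. The log2 ratio was 0.71 (SE 0.065, adjusted p = 9.18e-08, edgeR quasi-likelihood), higher in 9 of 9 lysates. Rars, the arginyl enzyme and a member of the multisynthetase complex, ran from 253 to 299 in input and from 352 to 466 in footprints. The Rars ranges did not overlap, and its log2 ratio was 0.65 (SE 0.061, adjusted p = 1.22e-07). Aars ran from 162 to 218 in input and from 265 to 318 in footprints, again without overlap, for a log2 ratio of 0.62 (SE 0.069, adjusted p = 7.79e-07). Exosc6 overlaps Aars on the same strand (20.4% of the 25-base words of Aars transcripts also occur there), and the sources used here do not say how such reads were assigned. Wars, the tryptophanyl enzyme, followed at 0.54, Iars at 0.48, Tars at 0.46, Dars at 0.42, Cars and Yars at 0.35, and Sars, Gars and Lars at 0.30, 0.28 and 0.25, all of them past the threshold and higher in 9 of 9 lysates.

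At the other end stood 3 cytosolic mRNAs with ratios just below 0. Hars, the histidyl enzyme, had a log2 ratio of -0.15 (SE 0.076, adjusted p = 0.094) with ratios of -0.49 to -0.08 in the 6 lysates of experiment 1 and 0.08 to 0.12 in the 3 of experiment 2. In experiment 1 alone Hars was lower (-0.27, adjusted p = 0.00305). Eprs, which encodes the joined glutamyl and prolyl enzymes, was at -0.09 (SE 0.057, adjusted p = 0.16), and Vars, the valyl enzyme, at -0.09 (SE 0.061, adjusted p = 0.19). Both were below 0 in 7 of 9 lysates. Mars at 0.08 and Kars at 0.13 were the other cytosolic members not called. Kars passed with lysate as a block (0.13, adjusted p = 0.049), which the shared lysate of input and footprints allows. Some higher calls were small and did not hold in every setting: Farsb at 0.15 and Farsa at 0.22, the subunits of the phenylalanyl enzyme, were not called in experiment 1 alone, and Qars at 0.19 was not called in experiment 2 alone. Farsb was also lost without the 90 min lysate of experiment 1 and without any one lysate of experiment 2, with adjusted p up to 0.124, and Qars without the 60 min lysate of experiment 1 (adjusted p = 0.0502).

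Among mitochondrial members Cars2, the cysteinyl enzyme, had the lowest density. It ran from 33.0 to 58.0 TMM-scaled CPM in input and from 17.9 to 29.4 in footprints, without overlap, for a log2 ratio of -0.98 (SE 0.100, adjusted p = 3.43e-07) that was lower in 9 of 9 lysates. Vars2, the valyl enzyme, ran from 21.0 to 25.2 in input and from 10.9 to 15.1 in footprints, also without overlap, for -0.89 (SE 0.067, adjusted p = 1.03e-08). Pars2 (prolyl) at -0.82, Ears2 (glutamyl) at -0.51, Tars2 at -0.48, Aars2 (alanyl) and Iars2 (isoleucyl) at -0.45, Fars2 (phenylalanyl) at -0.40, Mars2 at -0.39, Wars2 at -0.26 and Nars2 at -0.22 were lower as well. Nars2 was the least steady of them: the call was lost without any one of 7 lysates (all 6 of experiment 1 and the 40 min lysate of experiment 2), with adjusted p up to 0.084. It was also lost in experiment 2 alone (-0.05, adjusted p = 0.73), with DESeq2 size factors (adjusted p = 0.11), by DESeq2's Wald test (adjusted p = 0.14) and without the low-count filter (adjusted p = 0.097). Nars2 was called in 5 of 16 alternative fits. Wars2 was not called in experiment 2 alone. Hars2 at 0.03, Rars2 at 0.01 and Yars2 at -0.01 were not called.

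Lars2 had the highest density of its compartment before scaling for length. It lies at chr9:123366927-123462666 on the plus strand (GRCm38) and has 21 exons. Its footprint levels were steady at 37.9 to 47.6 TMM-scaled CPM. Its input levels fell in separate ranges, 9.10 to 10.8 in 6 libraries and 22.3, 28.9 and 30.7 in the 90 min library of experiment 1 and the 30 and 20 min libraries of experiment 2. All 9 footprint libraries were above all 9 input libraries, and the log2 ratio was 1.52 (SE 0.226, adjusted p = 1.84e-05), with lysate values from 0.50 to 2.37. The same gene's reads ranged from 56 to 1676 per input library. Of the 25-base words of Lars2 transcripts, 1.33% are shared with other annotated genes, chiefly AA474408 and Gm15564, neither of which was listed in any library. Sars2 was the other mitochondrial member called higher, at 0.23 (SE 0.081, adjusted p = 0.018) and above 0 in 7 of 9 lysates, but it was not called without the 40 min lysate of experiment 2 (adjusted p = 0.059).

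**Figure D2:**
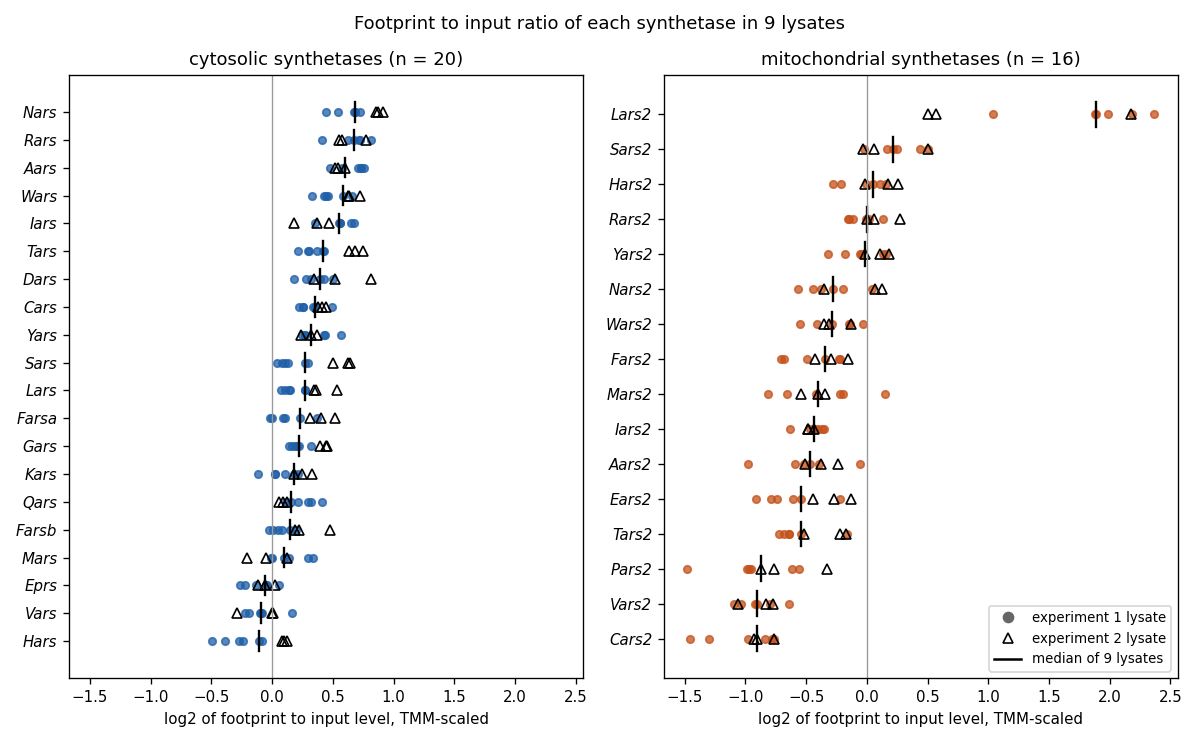
The log2 ratio of footprint to input level (TMM-scaled) of each synthetase in 9 lysates, cytosolic members left and mitochondrial members right, sorted by median; circles are experiment 1, open triangles experiment 2 and bars the median. Cytosolic medians lie between -0.11 and 0.68, 11 of 16 mitochondrial medians lie below -0.2 (Nars2 at -0.28 the nearest to it), and that of Lars2 lies at 1.89.

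The enzymes of 1 amino acid were set side by side where the list held a gene for each compartment. Of 13 such pairs, 11 had the higher density in the cytosolic enzyme, with a median difference of 0.80, before any scaling for length. The widest gap was cysteine, at 0.35 (SE 0.060) for Cars and -0.98 for Cars2. Leucine was reversed, at 0.25 (SE 0.060) for Lars against 1.52 for Lars2. Alanine had the next widest gap, at 0.62 for Aars against -0.45 (SE 0.094) for Aars2. Histidine was the other reversed pair, at -0.15 for Hars against 0.03 for Hars2, and these genes overlap on opposite strands, so without stated strand use reads of Hars and Hars2 cannot be told apart in the overlap.

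The size of the compartment difference depended on length scaling. Input reads come from the whole mRNA and footprints mostly from the coding part, and the coding share of the transcript with the longest coding sequence was 84.8% in the median cytosolic member and 70.7% in the median mitochondrial member. With footprints per kilobase of coding sequence and input per kilobase of transcript, the median log2 ratio was 0.48 for cytosolic and 0.28 for mitochondrial members, and 19 of 20 and 11 of 16 were above 0. The medians without length scaling were 0.29 and -0.39, so the mitochondrial median changed sign. A coding sequence is never longer than its transcript, so this scaling cannot by itself lower a ratio. No median over all genes was computed on this scale. Values above 0 there therefore do not mean a high density, and only the narrower gap between the compartments is read. Per length the cytosolic enzyme was above its mitochondrial counterpart in 9 of 13 pairs, with a median difference of 0.25. Methionine, at 0.21 for Mars and 2.30 for Mars2, and tryptophan, at 0.88 for Wars and 1.76 for Wars2, turned, and methionine became the widest gap. The top ranks turned as well, with Mars2 above Lars2 (1.98) and Aars (1.61) above Nars (1.42). The sources used here do not name the region the authors counted, and these lengths rest on 1 annotated transcript per gene. Mars2, whose single-exon transcript is only 15.6% coding, and Wars2, at 24.5%, are the members for which this matters most.

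Groups of cytosolic enzymes were described by counts, with the same background of 35.8% higher and 40.4% lower. Of the 8 enzymes of the multisynthetase complex, 5 had higher density (median 0.22), and of the 12 outside it 10 did (median 0.32). Of the 12 known as ATF4-responsive, 10 were higher (median 0.35), and of the other 8 cytosolic enzymes 5 were (median 0.17). Class I and class II enzymes, which differ in their catalytic fold, mixed both compartments: 8 higher and 6 lower of 19, and 9 higher and 5 lower of 17. Among other genes of the pathway, all 3 scaffold genes of the complex (Aimp1, Aimp2, Eef1e1) were higher, at 0.59, 0.81 and 0.33. Of 14 genes of tRNA charging, editing and handling, 2 were higher and 9 lower. The 9 include Xpot, which exports tRNA from the nucleus, at -0.91. Gatc at 1.68 was one of the 2 that were higher. Of 10 mitochondrial translation factors, 3 were higher, with the elongation factor Tufm at 0.80, and 4 lower. Of the sensor of uncharged tRNA and its targets, 2 of 8 were higher and 3 lower, with Atf4, whose translation is held back by upstream open reading frames, at -2.43 and the kinase gene Eif2ak4 at -1.44.

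Changes in the levels of synthetase mRNAs over the labelling time were seldom called in the main fits, which held no term for experiment. A value that is not called does not show that a level stayed the same. In input, 0 of 36 members changed per hour of 4sU by edgeR's quasi-likelihood test over 9 libraries, with 5 at an unadjusted p under 0.05, and among all 9269 genes tested 0.475% rose and 6.51% fell. The slopes nearest to a call were Mars2 at -0.28 log2 per hour (SE 0.081, adjusted p = 0.067), Mars at 0.18 (SE 0.058, adjusted p = 0.091), Tars2 at 0.20 (SE 0.066, adjusted p = 0.094) and Kars at 0.22 (SE 0.073, adjusted p = 0.10). With experiment as a block 3 members passed, Mars2 at -0.30 (adjusted p = 0.030), Kars at 0.16 (adjusted p = 0.033) and Mars at 0.18 (adjusted p = 0.036). DESeq2's Wald test called 6 members, those 3 with Eprs, Tars and Tars2. The highest and lowest cytosolic slopes were those of Kars, Mars and Gars (0.16) and those of Aars (-0.04), Rars (-0.03) and Iars (-0.01). Lars2 at -0.28 carried an SE of 0.416.

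In footprints 3 cytosolic members rose and 1 mitochondrial member fell, against 7.13% and 14.2% of 9664 genes. Kars rose by 0.25 log2 per hour (SE 0.060, adjusted p = 0.015), Hars by 0.19 (SE 0.057, adjusted p = 0.031) and Wars by 0.17 (SE 0.055, adjusted p = 0.045). Pars2 footprints fell by 0.57 per hour (SE 0.129, adjusted p = 0.011), from 5.92 TMM-scaled CPM at 0 min to 2.80 at 120 min of experiment 1, on 135 and 42 reads. None of these 4 calls held without the 90 min lysate of experiment 1 (adjusted p = 0.0577 for Kars, 0.0798 for Hars, 0.109 for Wars and 0.051 for Pars2) or without its 120 min lysate (0.357, 0.406, 0.502 and 0.21). Hars and Wars were also lost without the 0, 20 or 40 min lysate of that experiment, and Wars without the 20 or 30 min lysate of experiment 2, with adjusted p up to 0.0942. With experiment as a block 6 cytosolic members rose, adding Qars, Nars and Tars. Cars2 at 0.26 (SE 0.102, adjusted p = 0.090), Mars at 0.23 and Fars2 at 0.22 were not called, although Cars2 had the steepest rise of the 36 members. Rars at 0.01, Cars at 0.04 and Iars at 0.06 had the lowest cytosolic slopes.

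The ratio of footprints to input changed with time in 0 of 36 members. By edgeR's test of the product of material and hours 0 members had an unadjusted p under 0.05, and over 10110 genes 0 were called in either direction (0% higher and 0% lower), with 241 at an unadjusted p under 0.05 and 9 called by DESeq2. The slopes of cytosolic members lay between -0.05 (Tars) and 0.12 (Aars), with SEs of 0.113 and 0.102. The widest mitochondrial values were Lars2 at 0.40 (SE 0.401), Mars2 at 0.30 (SE 0.153) and Pars2 at -0.30 (SE 0.208), so changes of that size could not be resolved for these 3 mRNAs.

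The share of reads with a T-to-C conversion was followed as the readout of RNA made during the pulse. Without 4sU, 0.205% of cytosolic synthetase reads and 0.335% of mitochondrial ones carried a conversion in input, and 0.252% and 0.296% in footprints. In the input of experiment 1 the pooled cytosolic share was 0.433% at 20 min, 1.09% at 40 min, 2.05% at 60 min, 2.58% at 90 min and 4.18% at 120 min. The whole libraries stood at 0.866%, 2.16%, 3.91%, 5.201% and 8.07%, above the cytosolic synthetases at each time. The pooled mitochondrial share was 1.25%, 1.84%, 4.02%, 5.37% and 8.09%. Pooled cytosolic footprints stood at 0.264% at 20 min of experiment 1 and at 0.199% and 0.260% at 20 and 30 min of experiment 2. These shares were below or near the unlabelled 0.252%, and these libraries enter the labelling tests below.

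Much of the mitochondrial conversion came from 3 mRNAs, singled out after their values were seen. Mars2, which lies at chr1:55237177-55248470 as a single exon, had 0 converted of 216 input reads without 4sU, which allows a share of up to 1.39%. Its converted share in input was then 7.96% (21 of 264 reads, 95% Wilson interval 5.26% to 11.9%) at 20 min and 52.9% (72 of 136, 44.6% to 61.1%) at 120 min. Pars2, which lies at chr4:106651069-106655282 with 2 exons, went from 3.23% (2 of 62) at 0 min to 47.9% (23 of 48, 34.5% to 61.7%) at 120 min. Yars2 went from 0.234% to 19.5% (85 of 435, 16.1% to 23.5%). These 3 held 51.9% of the converted mitochondrial reads at 120 min, and the other 13 members pooled stood at 4.55% (3.92% to 5.27%), beside 4.18% for the cytosolic members. At the low end of the same library Rars2, the arginyl enzyme, had 0.741% (3 of 405 reads). Intervals and limits cover counting error only, since reads without molecular identifiers are not independent molecules.

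**Figure D3:**
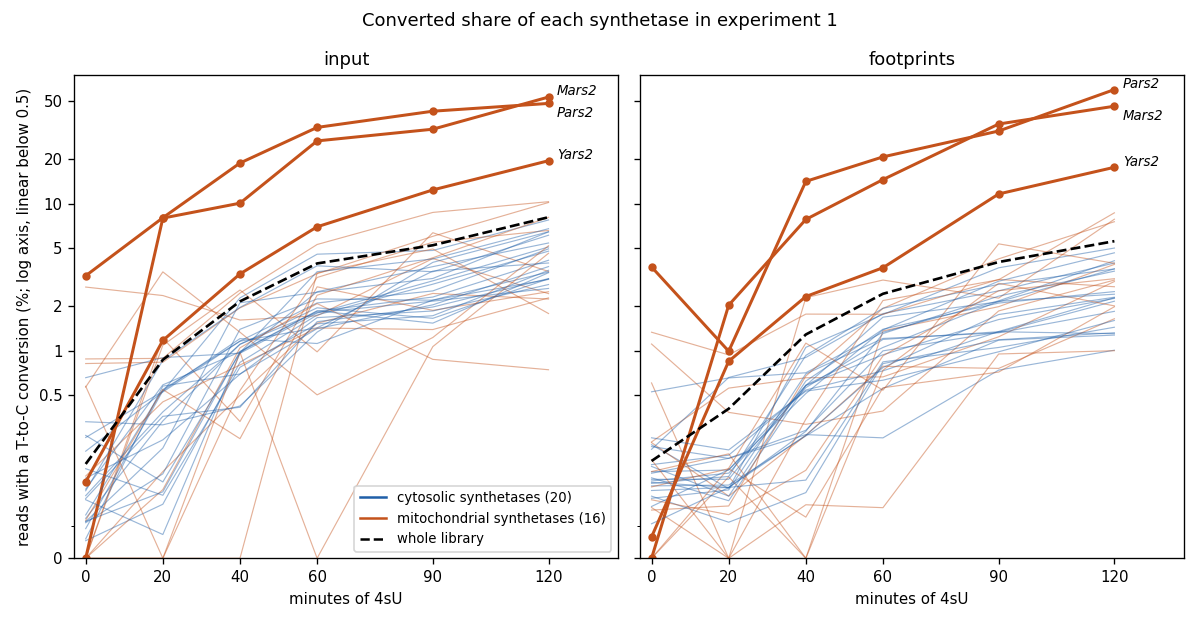
Percent of reads with a T-to-C conversion against minutes of 4sU in experiment 1 for 20 cytosolic (blue) and 16 mitochondrial (orange) synthetases, input left and footprints right; the axis is logarithmic above 0.5 and linear below, and the dashed line is the whole library. Mars2, Pars2 and Yars2 lie above the library line from 40 min on, and every cytosolic line ends below it at 120 min.

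Set against the median of the genes tested, cytosolic synthetase mRNAs were slowly labelled. Each gene's log2 odds of conversion, less the median over genes tested in the same library, was tested against 0 with limma over 8 labelled libraries. In input 17 of 20 cytosolic members were below the median gene and 0 above, with a median of -1.05. Of the 7045 genes tested, 35.2% were called above and 35.2% below. The median gene and these shares cover only genes that met the minimum of converted reads. That rule drops weakly labelled mRNAs with few reads more readily, while all 20 cytosolic members met it. How far they lie below the median of all expressed genes was therefore not measured. The lowest was Vars at -1.56 (SE 0.196, adjusted p = 2.2e-05), whose raw share at 120 min was 3.09% (112 of 3630 reads). Sars and Qars followed at -1.41 (SE 0.220 and 0.149). The 3 not called were Rars at -0.21 (SE 0.163, adjusted p = 0.27), Aars at -0.21 (SE 0.144, adjusted p = 0.20) and Kars at -0.40 (SE 0.200, adjusted p = 0.089). In experiment 2 alone 13 cytosolic members were below, and Dars, Farsa, Wars and Yars were not called (adjusted p = 0.0524 to 0.168). Kars had the highest unlabelled share of the cytosolic members, 0.654% (12 of 1835 reads), and with the unlabelled share subtracted its value was -1.27 (adjusted p = 0.000298). The same subtraction gained Aars (-0.57, adjusted p = 0.0461) and lost Farsa (-0.36, adjusted p = 0.122), for 18 cytosolic members below, against 34.5% of the genes tested. Kars was also called without the 20 min lysate of experiment 1 (-0.52, adjusted p = 0.031) or of experiment 2 (-0.54, adjusted p = 0.027). Annotated copies of Kars share 7.36% of its 25-base words, and those of Iars, through Gm4849, 21.4%.

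Mitochondrial members spread to both sides. Only 8 of 16 had the 50 converted reads that the fit required, and since that rule keeps labelled mRNAs more readily, counts over these 8 do not speak for the 16. Pars2 at 3.28 (SE 0.159, adjusted p = 8.83e-09), Mars2 at 2.92 (SE 0.172, adjusted p = 3.63e-08) and Yars2 at 1.06 (SE 0.145, adjusted p = 4.34e-05) were above the median gene, and Mars2 and Pars2 ranked above 96.5% and 98.0% of genes tested. Rars2 at -1.46 (SE 0.337, adjusted p = 0.0020), Iars2 at -1.34 (SE 0.217, adjusted p = 0.00016) and Tars2 at -0.74 (SE 0.221, adjusted p = 0.0096) were below it, and Hars2 and Ears2 were not called. Pars2 had a high unlabelled share, 3.23% in input and 3.70% in footprints, on 62 and 135 reads. The whole unlabelled libraries stood at 0.289% and 0.298%. At 20 min of experiment 2 the Pars2 shares were 4.21% in input and 1.44% in footprints. The 8 members not tested had means of 281 to 791 reads and 18 to 48 converted reads over the 8 libraries. Between the enzymes of 1 amino acid the widest gaps were methionine (-1.20 for Mars, 2.92 for Mars2), tyrosine (-0.58 for Yars, 1.06 for Yars2) and arginine (-0.21 for Rars, -1.46 for Rars2). Mars overlaps Ddit3 on the other strand, and Ddit3 was itself above the median gene at 2.57.

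Footprints gave nearly the same picture. There 18 of 20 cytosolic members were below the median gene and 0 above (median -1.08). Of the 6778 genes tested, under the same minimum of converted reads, 32.5% were above and 32.6% below. Mars at -1.66 (SE 0.255, adjusted p = 0.00023), Vars at -1.59 (SE 0.238) and Lars at -1.58 (SE 0.350) were lowest. Kars at 0.01 (SE 0.267) and Farsa at -0.08 (SE 0.299) were not called, and Aars at -0.44 (SE 0.150, adjusted p = 0.023) lost its call without the 60 min lysate of experiment 1 (adjusted p = 0.0508). Farsa had the highest unlabelled footprint share of the cytosolic members, 0.5245%. With the unlabelled share subtracted, Farsa was below the median gene (-0.925, adjusted p = 0.0463), against 32.6% of the genes tested. In experiment 2 alone 12 cytosolic members were below, without Aars, Dars, Farsb, Lars, Qars and Rars (adjusted p = 0.0517 to 0.106), and Yars2 was at 0.24 (adjusted p = 0.54). Of 7 mitochondrial members tested, Pars2 at 3.38 (SE 0.25), Mars2 at 2.69 (SE 0.236) and Yars2 at 0.86 (SE 0.218) were above and Rars2 at -1.963 (SE 0.397), Tars2 at -1.47 (SE 0.199) and Iars2 at -1.45 (SE 0.275) below. Counting conversions per T position in place of converted reads left 17 cytosolic calls in input and 18 in footprints.

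**Figure D4:**
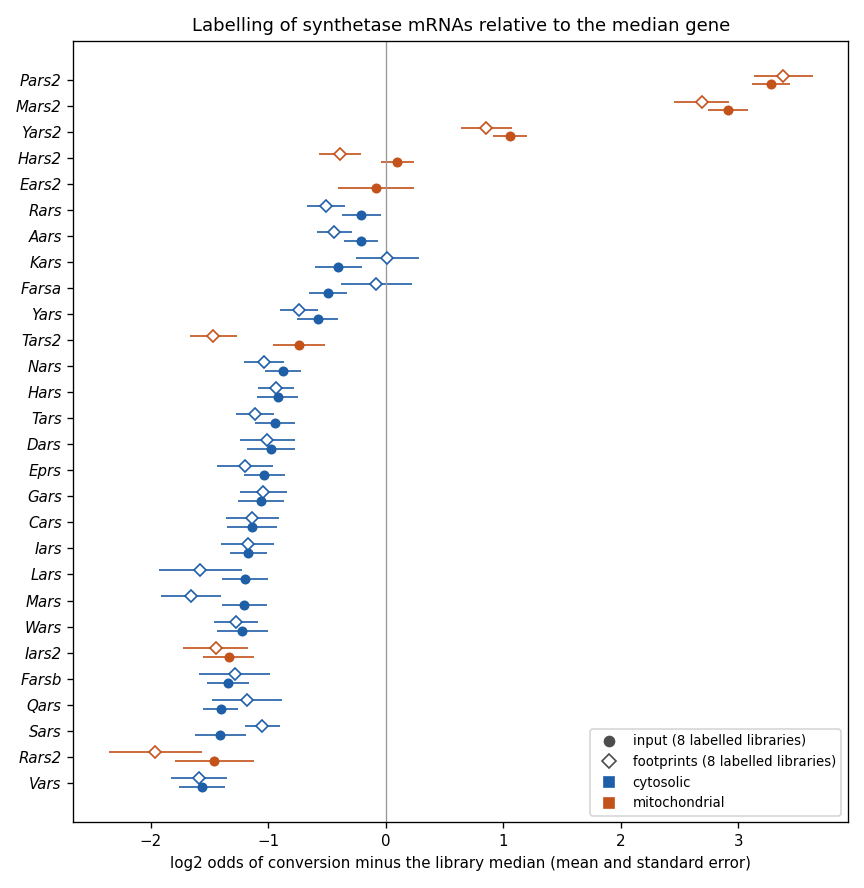
Log2 odds of conversion, less the median over genes tested in the same library, for the 28 synthetases tested, with the standard error over 8 labelled libraries. Filled circles are input, open diamonds footprints, blue cytosolic and orange mitochondrial. Pars2 and Mars2 lie near 3, Yars2 near 1, and the 20 cytosolic members lie between -1.56 and -0.21 in input.

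The next comparison asked whether converted reads were as frequent in footprints as in input. In the main fit conversion was lower in footprints than in input for every cytosolic member, as a log2 odds ratio in edgeR's design for methylation counts. That fit held labelling time, and not the shared lysate, as a term. There 20 of 20 were lower with a median of -1.02, and 8 of 15 mitochondrial members tested were lower with a median of -1.02. Over the 8276 genes tested the median was -0.79, and 0.145% were called higher against 59.4% called lower. Among cytosolic members Lars at -1.32 (SE 0.219, adjusted p = 8.41e-08), Mars at -1.31 (SE 0.234) and Rars at -1.20 (SE 0.207) were lowest, and Kars at -0.53 (SE 0.211, adjusted p = 0.024), Farsa at -0.56 (SE 0.248, adjusted p = 0.043) and Sars at -0.70 (SE 0.211) highest. Lars shares were 0.368% in footprints at 60 min and 1.12% in input. Of the mitochondrial members Lars2 at -1.71 (SE 0.465, adjusted p = 0.0011) and Tars2 at -1.63 (SE 0.284, adjusted p = 3.47e-07) were lowest, and Vars2 at -0.19 (SE 0.394, adjusted p = 0.66) and Aars2 at -0.58 (SE 0.444, adjusted p = 0.23) highest. In experiment 1 alone 17 of 20 cytosolic members and 2 of the 10 mitochondrial members tested were lower. By limma on log odds paired within each lysate, Farsa, Kars and Sars were not called (adjusted p = 0.102, 0.0556 and 0.105). Aars2 and Pars2 were called lower by that test (adjusted p = 0.0342 and 0.0392). Farsa was not called without any one of 5 lysates (adjusted p up to 0.154), Kars without the 40 min lysate of experiment 2 (adjusted p = 0.053), and Rars2 without the 30 min lysate of that experiment (adjusted p = 0.054).

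After the shift of the whole libraries was removed, 0 of 20 cytosolic and 0 of 7 mitochondrial members differed between footprints and input by limma on the difference within each lysate, with 1 and 2 at an unadjusted p under 0.05. Of 6331 genes 1.72% were higher and 0.948% lower, and the medians were -0.04 for cytosolic members, -0.23 for mitochondrial members and 0.08 for all genes. The most negative members were Tars2 at -0.73 (SE 0.232, adjusted p = 0.11), Rars2 at -0.51 (SE 0.417), Hars2 at -0.50 (SE 0.203, adjusted p = 0.18) and Mars at -0.46 (SE 0.233, adjusted p = 0.27), followed among cytosolic members by Lars at -0.39 and Rars at -0.31. Kars at 0.41 (SE 0.173, adjusted p = 0.20), Farsa at 0.41 (SE 0.285) and Sars at 0.35 (SE 0.268) were the most positive. Mars2 was at -0.23 (SE 0.218), Pars2 at 0.10 (SE 0.309) and Iars2 at -0.12 (SE 0.162). The SEs of the members were 0.144 (Dars) to 0.417 (Rars2), which limits the differences that could be resolved. The count depended on background: with each gene's unlabelled share subtracted, 5 cytosolic members (Iars, Lars, Mars, Nars, Vars) and 2 mitochondrial members (Iars2, Tars2) were lower in footprints, the widest being Lars at -3.35 (adjusted p = 0.000825). Under that setting 5.53% of the 6331 genes were higher and 6.89% lower. The subtracted shares were those of the 0 min lysate of experiment 1, for both experiments, and negative results were set to a small positive floor. Pooled cytosolic footprints stood at 0.199% at 20 min of experiment 2, below the 0.252% at 0 min. Floored counts can therefore enter these values, and the size of the Lars value is not interpreted.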

How the data were processed

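Raw read counts per gene, split by the number of T positions (0 to 20) and of T-to-C conversions (0 to 3), are the values the authors deposited, 1 table per library. Reads were aligned with Bowtie 0.12.8 and the build was mm10, per the submitters' processing notes. The sources used here do not name the counting program, the annotation, the counted region or the use of strand. Counts were summed per gene, and converted reads are those with at least 1 conversion. Levels and ratios were tested with edgeR 4.0.16 (quasi-likelihood, TMM, low-count filter) and labelling with limma 3.58.1 on log2 odds with a pseudocount of 0.5, in R 4.3.3, with Benjamini-Hochberg adjustment over all genes. Conversion odds were compared between materials with edgeR's methylation design. Labelling fits required a mean of 50 reads per library and 50 converted reads in all. DESeq2 1.42.0, other pseudocounts and minimums, no filter, blocks, each experiment alone and each lysate left out were alternatives. Tables were made in Python 3.11.15, with Wilson intervals from statsmodels 0.14.6. The code for each statistic was tested on simulated data.

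Per comparison the text names the 3 highest and 3 lowest cytosolic members, the 2 highest and 2 lowest mitochondrial members, the 3 amino acids with the widest gap between compartments, and the most and least abundant members. Other members are named where a call or its loss concerns them. The members and lists were chosen with earlier results of these data known. Input and footprints share a lysate per the labels' protocols. The correlation of their deviations from the material's mean was 0.116 to 0.723, and it was the highest for the own lysate in 4 of 9 cases. Lengths and overlaps come from GENCODE vM21, and promoters from RefSeq.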

Additional observations from a re-analysis of the deposited data

Results flagged for a closer look

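The footprint to input ratio of Hars, the cytosolic histidyl enzyme, differed in sign between the experiments. It was below 0 in all 6 lysates of experiment 1 (-0.49 to -0.08 on the log2 scale) and above 0 in all 3 lysates of experiment 2 (0.08 to 0.12), and experiment 2 minus experiment 1 was 0.365. A shift between the experiments was not particular to Hars. Sars, Tars, Nars, Gars and Lars also had higher ratios in every lysate of experiment 2 than in any of experiment 1, without a change of sign. For Sars they were 0.04 to 0.30 in experiment 1 and 0.50 to 0.64 in experiment 2. The ranges of the other cytosolic members overlapped. These differences were not tested. The experiments also differed in depth and in labelling times, and Hars overlaps Hars2 on the opposite strand. Their part in the result was not tested.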

How the results depend on the processing

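No called value of a member changed sign in the alternative fits. Of the 261 member values, 70 did, none of them called, among them the density of Hars (-0.15, up to 0.10 in experiment 2 alone) and of Mars (0.08, down to -0.05 there). Scaling density for length was not among these fits. That scaling cannot by itself lower a ratio, and it turned the mitochondrial median from -0.39 to 0.28. It also turned members called lower to values above 0: Mars2 (-0.39 to 2.30), Wars2 (-0.26 to 1.76), Nars2 (-0.22 to 1.17), Fars2 (-0.40 to 0.86), Iars2 (-0.45 to 0.40) and Pars2 (-0.82 to 0.16). Aars2, Cars2, Ears2, Tars2 and Vars2 stayed below 0. Of the planned counts of members called, 426 stayed within 1.5 times and 22 did not. The 426 include counts that were 0 in the main fit and stayed 0. For ribosome density, experiment 1 alone gave 1 cytosolic member called lower (Hars), and experiment 2 alone gave 1 mitochondrial member called higher. Leaving out a lysate gave 1 to 2 mitochondrial members called higher. For the change of input with time, DESeq2 called 4 cytosolic members higher, 1 mitochondrial member higher and 1 lower, and experiment as a replicate block gave 2 cytosolic higher and 1 mitochondrial lower. Over all genes DESeq2 called 1309 against 647. For the change of footprints with time, cytosolic members called higher numbered 5 with DESeq2, 1 without the low-count filter and 6 with experiment as a replicate block. Leaving out a lysate gave 0 to 6 cytosolic higher, 0 to 1 mitochondrial higher and 0 to 1 mitochondrial lower. For labelling of footprints, experiment 2 alone gave 1 mitochondrial member above and 0 below, of 2 tested. For relative labelling of footprints against input, subtracting the unlabelled share gave 5 cytosolic and 2 mitochondrial members lower, and experiment 2 alone gave 1 cytosolic member higher and 1 mitochondrial member lower. For conversion odds, experiment 1 alone gave 2 mitochondrial members lower, of 10 tested. Fewer lysates or members entered the fits of 1 experiment, and for the other settings the cause was not tested. With lysate as a replicate block the call of Kars was gained for density (0.13, adjusted p = 0.0493). Depth limits Pars2, with 33 to 451 input reads per library, and the mitochondrial members not tested for labelling.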

Other observations

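Of the sensor of uncharged tRNA and its targets, 6 of 8 genes could be tested for labelling of input by limma over 8 labelled libraries. Of these, 3 were above and 2 below the median gene, against 35.2% of the genes tested in each direction. Atf4 was at 2.92 (SE 0.147, adjusted p = 1.12e-08), Ddit3 at 2.57 (SE 0.223, adjusted p = 9.57e-07) and Sesn2 at 2.23 (SE 0.286, adjusted p = 2.6e-05). Gcn1l1 was below at -0.98 (adjusted p = 0.00233) and Asns, the asparagine synthetase, at -0.67 (adjusted p = 0.00508), and Eif2ak4 at 0.27 was not called. Of the 10 mitochondrial translation factors 2 were above and 5 below, which against the same background of 35.2% is not read as a result about the list.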
